A study of Drosophila melanogaster with 13 samples.

Results

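The comparison set late against early tumors of the *Drosophila melanogaster* eye-antennal disc, the larval epithelium that gives rise to the adult eye and antenna. It rests on 4 of the 13 samples of the study: 1 late and 1 early tumor library by ATAC-seq, where a transposase cuts and tags the open DNA of unfixed nuclei, and 1 late and 1 early library by FAIRE-seq, where DNA not bound to protein is extracted from formaldehyde-fixed tissue. The late and the early tumors shared the same cross, of a line carrying y,w,eyFlp, the act>y+>Gal4 driver, UAS-GFP and FRT82,Tub-Gal80 with a line carrying y,w, UAS-RasV12 and FRT82,scrib2. In such discs a flippase driven by the eyeless promoter makes patches of cells (clones) that lose *scrib*, express activated Ras and are marked by GFP, so that each disc is a mosaic of tumor and normal cells. The study describes early discs as holding much normal tissue, and late discs as overgrown by tumor tissue that reaches the optic lobes of the brain. The labels give wandering larvae of the third instar for both stages, while the methods place the late discs days after wandering began, in larvae that do not pupate. The labels give 10 discs for each ATAC-seq library and 200 for each FAIRE-seq library, and the methods give a few whole tumors for late ATAC-seq. The 5 wild type libraries set beside the tumors were 3 by ATAC-seq, of the strains Optix-GFP, FRT82 and DGRP-208, and 2 by FAIRE-seq, of CantonS and FRT82. With 1 library for each stage and technique, no stage has a second library within a technique. The p-values below set the late over early change against the disagreement of the 2 techniques, pooled over regions. A small p-value therefore does not mean that the techniques agreed at that region. For a comparison with the cytokine Upd, 2 ATAC-seq libraries of discs from a cross of GMR-gal4 with UAS-UPD:GFP were used, in which the GMR promoter drives Upd in the developing eye.

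Ras drives the MAPK cascade and cell growth, and *scrib* encodes a scaffold protein that keeps epithelial cells polarized. In flies, cells with both lesions activate JNK signaling through the AP-1 factors Fos and Jun, secrete Upd cytokines that start JAK/STAT signaling, fail to differentiate into photoreceptors and overgrow the disc. In normal discs the retinal determination genes such as *eya* and *so* set eye fate, and *gl*, *sens* and *rho* act as photoreceptors form. Open chromatin marks promoters and enhancers. More cells with an open region and more opening per cell cannot be told apart in these bulk samples.

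The merged peaks held 10871706 reads in the late ATAC-seq library, 5484530 in the late FAIRE-seq library, 5452448 in the early ATAC-seq library and 4351936 in the early FAIRE-seq library. The chi-square per degree of freedom between the stages was 6.59 by ATAC-seq and 5.2 by FAIRE-seq, which sets 1 library of each stage against counting noise and is no test of the stages. The reads carry no molecular identifiers, and counting precision covers counting error only. The number of peaks listed was 22498 in late and 20444 in early tumors by ATAC-seq, and 21715 in late and 20092 in early tumors by FAIRE-seq.

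Of 36503 regions tested, 139 were more open in the late tumors (0.381% of the regions tested) and 173 were less open (0.474%), at an adjusted p under 0.01 in edgeR's quasi-likelihood test with technique as a term. A fold change of at least 2 with no test was found at 503 regions that were higher in late tumors (1.38%) and 410 that were lower (1.12%). The 139 rising regions changed by a median of 1.13 on the log2 scale. The 173 falling regions had an absolute median of 1.13 too, and no change of a called region was smaller than 0.70. Each of the 312 called regions moved the same way in both techniques, beside 54.7% of all tested regions. Among the called regions 42 rising and 66 falling ones passed 2-fold in ATAC-seq and in FAIRE-seq taken alone. The call combines the ratios of both techniques, so a shared direction among called regions follows largely from how they were chosen. The calls depended on how the spread was estimated. DESeq2 called 3 rising and 12 falling regions, and a model that also held the 5 wild type libraries called 0 in each direction, with 1501 regions at an unadjusted p under 0.05 in that model. The called regions were chosen on the tumor libraries that this model also holds, so what they kept in it is a description. In the model with wild types 126 of the 139 rising and 170 of the 173 falling regions kept their direction at an unadjusted p under 0.05. These counts were 35 and 127 without the early FAIRE-seq library, 59 and 115 without the late ATAC-seq library, 107 and 143 without the late FAIRE-seq library and 129 and 138 without the early ATAC-seq library.

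Across all tested regions the techniques shared little of their late over early ratio, with a Pearson correlation of 0.16 over 36503 regions and the same sign at 54.7% of them. The correlation was 0.40 over the 15730 regions with at least 100 counts on average. Regions are not independent replicates, and the libraries of a technique share their depth and base composition, so this is a description. At least 2-fold higher in late tumors in both techniques were 104 regions, and 104 were at least 2-fold lower in both. Discordant changes of this size were 64 regions up by ATAC-seq and down by FAIRE-seq and 2 regions of the opposite kind. Most of these were shallow: with at least 50 counts on average they were 5 and 0. At that depth 62 regions were at least 2-fold higher and 73 at least 2-fold lower in both techniques.

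**Figure D1:**
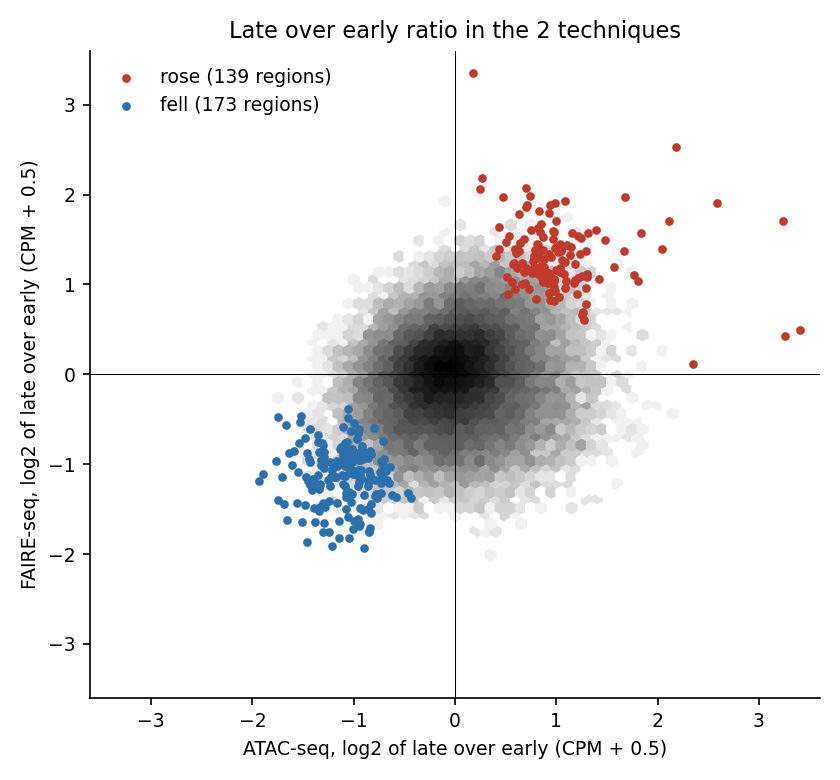
Log2 ratio of late over early tumors (normalised CPM plus 0.5) by ATAC-seq on the horizontal and FAIRE-seq on the vertical axis; grey cells hold all 36503 tested regions on a log density scale, red points the 139 rising and blue points the 173 falling regions. The called regions lie where both techniques move the same way, above 0 on both axes for the rising and below 0 for the falling regions. The call combines both ratios, so this place follows largely from how the regions were chosen.

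The wild type libraries did not enter the test and were set beside its calls. Rising regions had a median of 34.3 normalised CPM (read counts scaled to library size with TMM factors) in the late and 18.5 in the early ATAC-seq library, against medians of 5.54 to 6.13 in the 3 wild type libraries. By FAIRE-seq their median was 37.2 in late tumors and 15.3 in early tumors, against 10.8 and 9.92 in the wild types. Over all tested regions the median wild type mean was 11.6 by ATAC-seq and 12.9 by FAIRE-seq, so that rising regions were below it by ATAC-seq and closer to it by FAIRE-seq. The early tumor stood between wild type and late tumor. Falling regions had a median of 23.6 in the late and 54.7 in the early ATAC-seq library, against 72.2 to 81.1 in the wild types. By FAIRE-seq they had 14.2 in late tumors and 32.6 in early tumors, against 38.8 and 30.0 in the wild types.

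**Figure D2:**
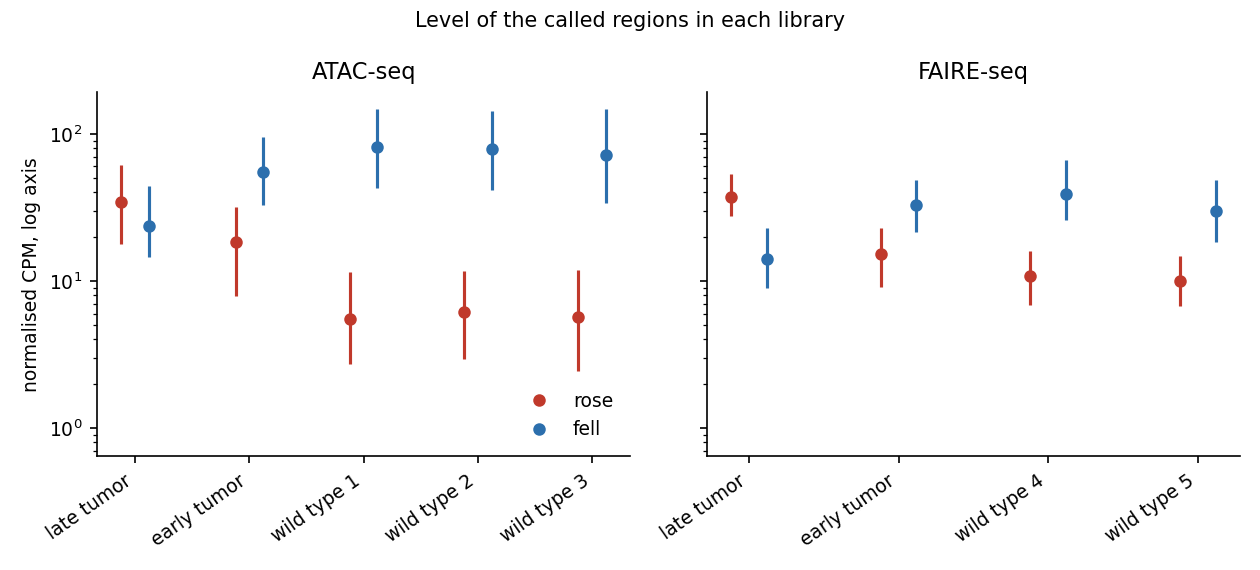
Normalised CPM on a log axis in each library, with points for the median and bars for the quartiles of the 139 rising (red) and 173 falling (blue) regions. The median of the falling regions is lowest in the late tumor in both techniques, and that of the rising regions is above every wild type median in the early tumor already.

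The late tumor was above every wild type library of its technique at 132 of the 139 rising regions, beside 24.9% of all tested regions. The early tumor was already above every wild type library at 96 of them (69.1%), beside 22.0% of all tested regions. At 143 of the 173 falling regions the late tumor was below every wild type library, beside 26.5% of all tested regions. The early tumor was below every wild type library at 55 falling regions (31.8%, beside 22.1% of all tested regions), above every one at 25 (14.5%, beside 22.0%), and neither at 93. The early tumor was thus beyond all wild types, in the direction of the later change, at more of the rising than of the falling regions. The tumor libraries enter both the call and these counts, which are therefore a description.

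The 25 falling regions above every wild type library in the early tumor were chosen for that order, so their levels are a description and not a result. Their median was 29.7 CPM in the late and 74.7 in the early ATAC-seq library, against 34.0 for the wild type mean. By FAIRE-seq it was 15.0 in late tumors and 31.9 in early tumors, against 22.7. In the late tumor 9 of them were below every wild type library, 1 was still above and 15 were neither. They include regions near *eya*, *ara*, *so* and *jing*, which are described with their genes below, and a region on 3R from 15827630 to 15828500 (dm3, as are all positions here) that had 224 CPM in the late and 390 CPM in the early ATAC-seq library, against 190 to 240 in the wild types.

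Peak lists of the wild type libraries were then set beside the calls. Of the 139 rising regions, 89 (64.0%) overlapped a peak in none of the 5 wild type lists, a class that held 20.3% of the regions tested. Of the 173 falling regions, 118 (68.2%) were in all 5 lists, a class that held 29.4%. In the class found in no wild type list 1.2% of regions rose and 0.054% fell, and in the class found in all 5 lists 0.0652% rose and 1.1% fell. The median log2 fold change was 0.25 in the first class (0.17 by ATAC-seq, 0.28 by FAIRE-seq) and −0.06 in the second (−0.11 and −0.01). Regions of the first class are narrower, with a median width of 157 bp against 493 bp, and could enter the merged list only through a tumor or Upd library. With at least 100 counts on average 4.62% of the first class rose and 0.142% fell, and 0.0717% of the second rose and 1.1% fell. At that depth 0.718% of all tested regions rose and 0.915% fell, so the falling share of the second class was close to that of all. Among the 2318 regions of the first class that were listed in at least 1 late and 1 early tumor, 40 rose and 3 fell. These were 1.73% and 0.129%, beside 0.381% and 0.474% of all tested regions at any depth. Their median was 0.20 (0.05 by ATAC-seq, 0.37 by FAIRE-seq).

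**Figure D3:**
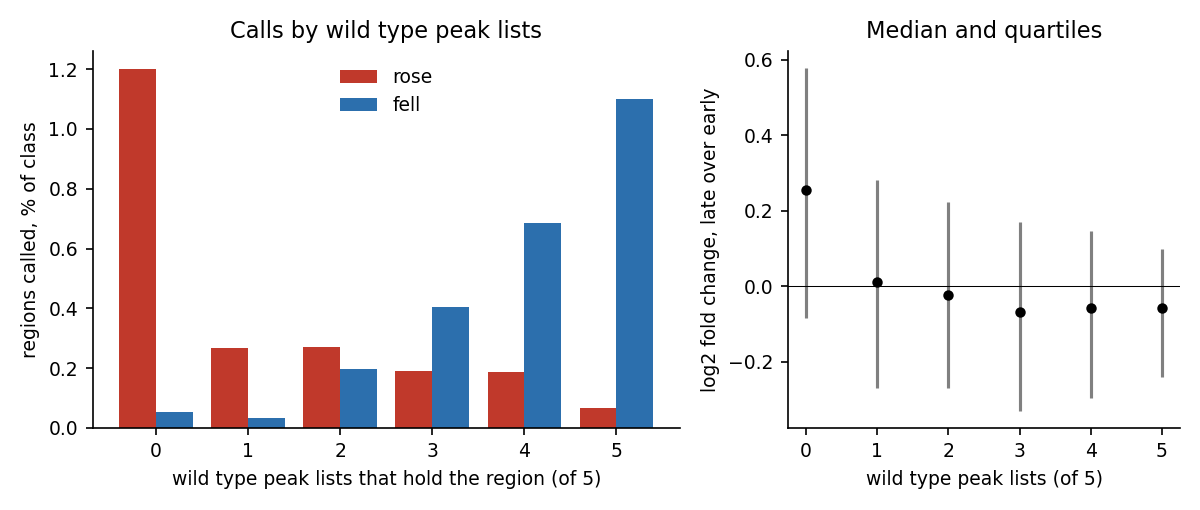
Left, share of regions that rose (red) and fell (blue) in late against early tumors, by the number of wild type peak lists holding the region; right, median (point) and quartiles (bar) of the log2 fold change in the same classes. Rising calls are most frequent at 0 lists (1.2%) and falling calls at 5 lists (1.1%).

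A peak in at least 1 late list and in no early list was found at 4805 merged regions, and a peak in at least 1 early list and in no late list at 1659. A peak in both late lists and in no early list was found at 438 merged regions, of which 31 rose and 0 fell in the test, and 309 of the 438 were in no wild type list. A peak in both early lists and in no late list was found at 188 regions, of which 0 rose and 30 fell, and 78 of the 188 were in all 5 wild type lists. Of all tested regions 0.381% rose and 0.474% fell, 20.3% were in no wild type list and 29.4% were in all 5. All 4 tumor lists held 12413 regions. The lists and the counts come from the same reads.

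Among the 10 rising regions with the largest change, 6 had low levels in early tumors and in wild types and moved in both techniques. The region on 3R from 4787361 to 4787633 had 15.6 CPM (150 reads) by ATAC-seq and 24.8 CPM (154 reads) by FAIRE-seq in late tumors, against 3.04 CPM (14 reads) and 3.89 CPM (20 reads) in early tumors. It rose by 2.52 on the log2 scale (standard error 0.35, adjusted p = 2.45e-09, edgeR), and the wild type means were 0.888 and 4.47 CPM. It was in both late lists and in no early or wild type list. The region on X from 13164953 to 13165298 had 12.9 and 31.2 CPM in late tumors by ATAC-seq and FAIRE-seq, against 1.74 and 7.97 CPM in early tumors (log2 fold change 2.27, standard error 0.33, adjusted p = 2.58e-08, edgeR). The region on 2R from 7802375 to 7802658 had 11.5 and 26.6 CPM in late tumors, against 3.26 and 6.41 CPM in early tumors (1.95, standard error 0.34). In both techniques the late tumor was over 3 times the early tumor at these 3 regions, and none was in a wild type list. The regions on 3L from 11079801 to 11079934, on X from 14755491 to 14755783 and on 3L from 12790442 to 12790581 rose by 2.10, 1.84 and 1.77 with 4 to 6 reads in the early ATAC-seq library.

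Another of the 10, on 3L from 23826222 to 23826434, was high in early tumors already and held the highest count of the late ATAC-seq library. It had 23508 reads (2444 CPM) by ATAC-seq and 357 reads (57.5 CPM) by FAIRE-seq in late tumors, against 1193 reads (259 CPM) and 89 reads (17.3 CPM) in early tumors. It rose by 2.62 on the log2 scale (standard error 0.19, adjusted p = 6.1e-41, edgeR), and no wild type library passed 2.15 CPM there. The 4 tumor libraries all listed a peak at this site.

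The remaining 3 of the 10 rest on 1 technique or differ among wild type libraries. The region on 3R from 11635957 to 11636119 had 0.312 CPM (3 reads) by ATAC-seq and 65.9 CPM by FAIRE-seq in late tumors, against 0.217 CPM (1 read) and 6.02 CPM in early tumors. Its log2 fold change of 3.34 comes from FAIRE-seq, where the wild types had 2.85 CPM in CantonS and 28.4 CPM in FRT82. By ATAC-seq FRT82 had 0.676 CPM there. A pair of regions on 2R, from 938224 to 938506 and from 938559 to 938732, had 77.1 and 73.6 CPM in late tumors by ATAC-seq, against 7.604 and 6.52 CPM in early tumors. By FAIRE-seq the pair had 11.1 and 8.37 CPM in late tumors, against 8.16 and 5.83 CPM in early tumors. The FRT82 wild type had 381 and 336 CPM there by ATAC-seq and the other ATAC-seq wild types at most 1.79 CPM. By FAIRE-seq FRT82 had 1.08 and 0.359 CPM and CantonS 8.70 and 7.48 CPM. FRT82 was thus the highest wild type by ATAC-seq and the lower by FAIRE-seq. The level at this pair varied among control libraries by more than between the stages. In the model with the wild types and without the early ATAC-seq library, the first of the pair had a log2 fold change of −0.092. Without the 3 regions 136 regions rose. The 136 still include another rising region of the 2R site, which runs from 938057 to 938732 in all. That further region had a log2 fold change of 1.46.

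Of the 10 falling regions with the largest change, 9 had at least 17.6 CPM in every ATAC-seq wild type, and all 10 had at least 6.12 CPM in both FAIRE-seq wild types. The region on 3L from 13134633 to 13135145 had 21.8 CPM by ATAC-seq and 11.8 CPM by FAIRE-seq in late tumors, against 74.7 and 31.9 CPM in early tumors. It changed by −1.62 on the log2 scale (standard error 0.24, adjusted p = 2.06e-08, edgeR), and it lies in a run of 3 falling regions within 2135 bp. The region on 2L from 12117020 to 12117510 had 24.3 and 12.2 CPM in late tumors, against 79.5 and 34.2 CPM in early tumors (−1.61, standard error 0.23, adjusted p = 1.85e-08, edgeR). The region on 2R from 5585417 to 5586262 had 20.1 and 10.8 CPM in late tumors, against 58.2 and 34.8 CPM in early tumors (−1.60, standard error 0.24). Each was 2 to 4 times lower in late tumors in both techniques. The largest fall, −1.88, was at the shallowest region, on 3R from 21154381 to 21154533, with 19 and 10 reads in late tumors, against 29 and 37 reads in early tumors, and 0 CPM in the Optix-GFP wild type beside 24.7 and 26.9 CPM in the other ATAC-seq wild types. The other 6 fell by 1.54 to 1.76.

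Gene names were taken from the region and gene pairs that the study lists for genes that open and are expressed more, or close and are expressed less, in tumors. These lists were chosen by the study on these tumor libraries, so they are not independent evidence of a direction. Over all tested regions 0.381% rose and 0.474% fell. Of 209 regions paired with opening genes 6 rose and 0 fell, with a median log2 fold change of 0.37 (0.10 by ATAC-seq, 0.56 by FAIRE-seq). Of 276 regions paired with closing genes 0 rose and 5 fell, with a median of −0.28 (−0.10 by ATAC-seq, −0.50 by FAIRE-seq), beside −0.01 for all tested regions. Within 10 kb of a region of an opening gene lay 17 of the 139 rising regions (12.2%) and 4 of the 173 falling regions (2.31%), beside 5.02% of all tested regions. Within 10 kb of a region of a closing gene lay 2 rising (1.44%) and 27 falling regions (15.6%), beside 6.79% of all. The distance of 10 kb was chosen after the values were seen, and a region in such a window may belong to another gene.

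Among JNK and AP-1 genes, *puc*, which encodes the phosphatase that switches off JNK, had the clearest rise. Its paired region, on 3R from 3942722 to 3943386, had 171 CPM by ATAC-seq and 121 CPM by FAIRE-seq in late tumors, against 93.6 and 56.0 CPM in early tumors and 17.1 to 33.7 CPM in the wild types. It rose by 0.98 on the log2 scale (standard error 0.19, adjusted p = 9.47e-05, edgeR). A second rising region lies 341 bp away, on 3R from 3941981 to 3942380, with 149 and 81.0 CPM in late tumors, against 99.1 and 41.6 CPM in early tumors (0.77, adjusted p = 0.00808, edgeR). All 14 merged peaks within 10 kb of the paired region had a log2 fold change above 0, with a median of 0.36, and 2 of them passed the test.

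At *Ets21C* and *rpr* the called regions lay beside the paired ones. *Ets21C*, an ETS transcription factor, had 68.3 and 23.7 CPM at its paired region in late tumors, against 60.4 and 14.6 CPM in early tumors (0.40, standard error 0.22, adjusted p = 0.515, edgeR). Rising regions lay 3228 and 4306 bp from it: that on 2L from 552134 to 552280 had 21.2 and 19.6 CPM in late tumors, against 12.8 and 5.05 CPM in early tumors (1.27), and that from 553212 to 553792 had 110 and 91.8 CPM in late tumors, against 67.6 and 45.3 CPM in early tumors (0.86). At *rpr*, which triggers apoptosis, the paired region had 563 and 153.5 CPM in late tumors, against 545 and 127.5 CPM in early tumors (0.15). A small region 441 bp away, on 3L from 18394247 to 18394493, had 26.8 and 30.6 CPM in late tumors, against 11.5 and 14.6 CPM in early tumors (1.14, standard error 0.26, adjusted p = 0.00279, edgeR). The window of *rpr* was mixed, with 5 of 9 merged peaks below 0 and a median of −0.09. The small region was in both late lists and in no early or wild type list. Of the 7 listed JNK genes with a paired region only that of *puc* passed the test, and the others had log2 fold changes of 0.60 (*cher*, filamin), 0.34 (*Ilp8*, a relaxin-like hormone), 0.22 (*Mmp1*, a matrix metalloproteinase) and 0.05 (*Atf3*, a bZIP factor) beside the values above, with a median of 0.34. Of 78 merged peaks within 10 kb of these regions 5 rose and 0 fell, beside 0.381% and 0.474% of all tested regions.

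The Upd ligands lie side by side on X and none of their paired regions passed the test. The region of *upd2* had 14.7 and 5.31 CPM in late tumors, against 7.39 and 2.91 CPM in early tumors (0.94, standard error 0.37, adjusted p = 0.199, edgeR). The region of *upd3* had 30.1 and 31.4 CPM in late tumors, against 23.2 and 16.1 CPM in early tumors (0.66), and that of *os*, which encodes Upd, had 324 and 71.7 CPM in late tumors, against 210 and 63.3 CPM in early tumors (0.41). Both techniques gave higher values in late tumors at the paired regions of the 3 genes. All 9 merged peaks within 10 kb of the *upd2* region had log2 fold changes above 0 (median 0.67). The other windows were mixed, with 9 of 15 above 0 at *upd3* (median 0.46) and 5 of 9 at *os* (median 0.20). At *os* the window medians were −0.01 by ATAC-seq and −0.07 by FAIRE-seq. Near *upd3* a region on X from 18165366 to 18165788 went the other way, with 24.6 and 9.50 CPM in late tumors, against 54.8 and 17.3 CPM in early tumors (−1.03, adjusted p = 0.00545, edgeR). *chinmo*, a zinc finger gene downstream of JAK/STAT, had 0.32 at its paired region, and 5 of 9 merged peaks in its window were above 0 (median 0.0075).

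The region paired with *p53*, a tumor suppressor gene, had 53.9 and 41.7 CPM in late tumors, against 35.6 and 19.0 CPM in early tumors and 2.12 to 7.54 CPM in the wild types. On the log2 scale it had 0.85 (standard error 0.23), with an adjusted p of 0.0158 in edgeR that missed the threshold, while 10 of the 12 merged peaks within 10 kb had values below 0. The regions of *fru*, a zinc finger gene, and *Imp*, which encodes an RNA-binding protein, had log2 fold changes of 0.08 and 0.05 with standard errors of 0.19 each. At *fru* late tumors had 160 and 68.9 CPM and early tumors 152 and 64.5 CPM, and at *Imp* late tumors had 90.4 and 116 CPM and early tumors 94.3 and 103 CPM. Both were well above the wild types, which had at most 19.0 CPM at *fru* and 31.2 CPM at *Imp*.

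At *so* and *eya* the falling regions lay beside the paired ones, which missed the threshold. At *so*, a homeobox gene that sets eye fate, the paired region on 2R from 3312336 to 3312928 had 13.5 and 6.12 CPM in late tumors, against 24.98 and 15.2 CPM in early tumors and 89.5 to 118 CPM by ATAC-seq in the wild types. On the log2 scale it had −1.07 (standard error 0.29, adjusted p = 0.0192, edgeR). A wide region 5808 bp away, on 2R from 3318737 to 3320032, fell in the test. It had 114 and 45.4 CPM in late tumors, against 224 and 99.7 CPM in early tumors, and 151 to 176 CPM by ATAC-seq and 52.3 to 93.3 CPM by FAIRE-seq in the wild types (−1.05, standard error 0.19, adjusted p = 1.95e-05, edgeR). Late tumors were below and early tumors above every wild type library there. All 10 merged peaks in the 10 kb window of *so* had log2 fold changes below 0, with a median of −0.47.

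At *eya*, which encodes a transcriptional coactivator and phosphatase, the paired region had 8.73 and 3.70 CPM in late tumors, against 9.12 and 10.5 CPM in early tumors (−0.71, adjusted p = 0.408, edgeR). The falling region 9406 bp away, on 2L from 6547560 to 6548312, had 58.1 and 22.4 CPM in late tumors, against 119 and 60.8 CPM in early tumors and at most 84.5 and 40.9 CPM in the wild types (−1.22, standard error 0.20, adjusted p = 4.02e-06, edgeR). In the same window 8 of 9 merged peaks had values below 0. The paired regions of *dac*, *eyg* and *toe*, further retinal determination genes, had −0.24, −0.19 and −0.15, with standard errors of 0.36, 0.47 and 0.47. Their windows were mixed, with 3 of 10, 5 of 9 and 6 of 16 merged peaks above 0 and medians of −0.25, 0.06 and −0.02. In this list 0 of the 5 paired regions passed the test (median −0.24), beside 0.855% of all tested regions.

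At *gl* and *sens* the falling regions also lay beside the paired ones. *gl*, a zinc finger factor of photoreceptor differentiation, had a paired region with 2.60 and 2.74 CPM in late tumors, against 7.82 and 5.83 CPM in early tumors (−1.35, standard error 0.44, adjusted p = 0.073, edgeR). A stronger region 2772 bp away, on 3R from 14198450 to 14199172, had 61.7 and 19.6 CPM in late tumors, against 103 and 49.7 CPM in early tumors (−1.01, standard error 0.21, adjusted p = 0.000504, edgeR). *sens*, a zinc finger factor of the R8 photoreceptor, had −0.93 at its paired region, and a falling region 9560 bp away, on 3L from 13401507 to 13401962, had 42.1 and 22.1 CPM in late tumors, against 76.5 and 47.0 CPM in early tumors (−0.97, adjusted p = 0.00168, edgeR). All 11 merged peaks in the *sens* window were below 0. In the *gl* window 3 of 13 were above 0, up to 0.825, with a median of −0.19. In the windows of *Dl* and *sev* 2 of 11 and 0 of 2 were above 0. The regions of *sev*, a receptor tyrosine kinase of the R7 photoreceptor, and *Dl*, the Notch ligand, had −0.64 and −0.21. None of the 4 paired regions passed the test, beside 0.855% of all tested regions, and their median was −0.79.

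**Figure D4:**
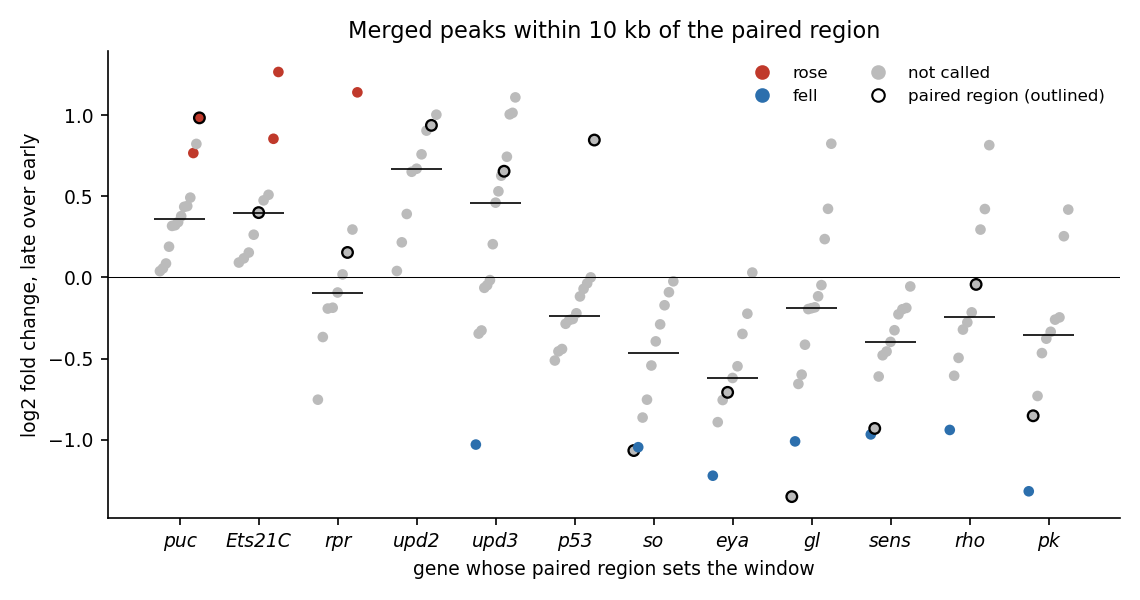
Log2 fold change of late over early tumors for each merged peak within 10 kb of the region paired with a gene; red and blue mark regions that rose or fell in the test, grey the others, a black outline the paired region and a line the median. All peaks of *puc* (14), *Ets21C* (9) and *upd2* (9) lie above 0 and all peaks of *so* (10) and *sens* (11) below it.

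Other falling regions were at or near those paired with the genes *ed*, *Ppn*, *pk* and *rho*. The paired region of *ed*, which encodes an immunoglobulin adhesion protein, had 14.1 and 16.3 CPM in late tumors, against 36.1 and 32.1 CPM in early tumors and 249 and 92.1 CPM on average in the wild types (−1.17, adjusted p = 0.0008, edgeR). That of *Ppn*, which encodes the matrix protein papilin, had 20.1 and 9.18 CPM in late tumors, against 42.2 and 19.6 CPM in early tumors (−1.08). The paired regions of *CG15905*, *CG14372* and *CG7720* fell by 1.18, 1.02 and 0.98. A region 441 bp from that of *pk*, a planar cell polarity gene, had 11.4 and 6.60 CPM in late tumors, against 21.1 and 23.5 CPM in early tumors (−1.32), and one 326 bp from that of *rho*, a protease that releases EGF receptor ligands, had 31.0 and 19.3 CPM in late tumors, against 58.7 and 37.7 CPM in early tumors (−0.94). Each of these regions was lower in early tumors than in the wild type mean of its technique.

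A different course was seen at *ara*, an Iroquois homeobox gene, and *jing*, a zinc finger gene. The region 3269 bp from that of *ara* had 38.7 and 19.8 CPM in late tumors, against 87.5 and 40.6 CPM in early tumors and at most 33.9 CPM by ATAC-seq in the wild types (−1.11). The region 9173 bp from that of *jing* had 55.8 and 21.3 CPM in late tumors, against 104.9 and 39.0 CPM in early tumors and 30.5 to 43.0 CPM by ATAC-seq in the wild types (−0.90). At both regions the early tumor was the highest of the 3 groups in both techniques.

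The paired regions that rose, besides *puc*, belonged to *Tdc1* and *CG9422*, which share one, *Rcd2*, *moody*, *CG13215* and *CG15745*. *Tdc1* encodes a tyrosine decarboxylase, and its region had 262 and 86.2 CPM in late tumors, against 178 and 42.2 CPM in early tumors (0.78, adjusted p = 0.00373, edgeR). The region of *CG13215* had 72.1 and 64.2 CPM in late tumors, against 49.5 and 21.8 CPM in early tumors (1.02), and that of *Rcd2* had 59.3 and 73.8 CPM in late tumors, against 34.8 and 33.6 CPM in early tumors (0.95). The region with the smallest adjusted p near a region of an opening gene was 1639 bp wide, on 2R from 14056538 to 14058176, 570 bp from that of *CG10916*. It had 294 and 83.6 CPM in late tumors, against 118 and 27.8 CPM in early tumors and 15.7 and 16.3 CPM on average in the wild types (1.44, standard error 0.19, adjusted p = 3.64e-10, edgeR).

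*moody*, a receptor of glia at the blood-brain barrier, is a marker on the brain and glia list. Its region had 357 and 166 CPM in late tumors, against 248 and 89.4 CPM in early tumors and 110 and 51.1 CPM on average in the wild types (0.71, standard error 0.17, adjusted p = 0.00712, edgeR). The other brain marker with a paired region, *insc*, a neuroblast gene, had 101 and 32.1 CPM in late tumors, against 101 and 29.1 CPM in early tumors (0.06). In the 10 kb window of *moody* only the called region of 5 merged peaks was above 0 (median −0.18), and the median over the windows of both markers was −0.12. Only 2 of the 10 brain and glia markers have a paired region, and none of the hemocyte, muscle, trachea, fat body and germline markers has one. Whether other tissue in the late dissections had a part in the calls was not tested.

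Other pathways gave no called paired region. These sets are small, and 0.855% of all tested regions were called, so the lack of a call says little about the pathways. Ras and MAPK feedback genes had paired regions with log2 fold changes between −0.24 (*S*, which encodes the EGF pathway protein Star) and 0.51 (*aos*, which encodes the inhibitor Argos), and 0 of 5 were called. The 10 regions of ecdysone response genes, which respond to the molting hormone, ranged from −0.67 (*Blimp-1*, a repressor induced by ecdysone) to 0.49 (*Cyp18a1*, an enzyme that degrades ecdysone), with a median of −0.14. The selector genes *hth* and *Dll* had −0.06 and 0.33, and *dia*, which encodes a formin, and *Fas3*, an adhesion gene, had 0.52 and −0.62. Of 20 merged peaks within 10 kb of the last pair of regions none was called.

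Called regions of 1 direction lay near each other. Another rising region was found within 10 kb of 49 of the 139 rising regions (35.3%), whereas 3.10% of all tested regions lay as close to a rising one. Of the 173 falling regions 26 (15.0%) had a falling neighbour, beside 3.61% of all tested. Only 2 rising regions had a falling region within 10 kb. Runs of 3 rising regions were found on X from 3325611 to 3327093, on 3L from 6255521 to 6257478, on 3L from 1374742 to 1380067 and on 3R from 6217639 to 6219903, besides the pieces of the 2R site above, with median log2 fold changes of 1.02, 0.91, 1.03 and 1.29. The run on 3L that starts at 6255521 was the only one of these whose 3 regions were all in 5 wild type lists. Neighbours may be parts of 1 open site.

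Ratios of neighbouring regions were also set side by side across techniques. For pairs of merged peaks up to 200 bp apart the correlation of the ATAC-seq ratio of a region with the FAIRE-seq ratio of the next was 0.15 (7895 pairs), against 0.20 within a region. For pairs 1 to 2 kb apart it was 0.04, against 0.17 within a region, and beyond 10 kb 0.03, against 0.06. The correlation within a region thus fell with the gap too. These values are weak and are a description of regions that share their libraries.

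**Figure D5:**
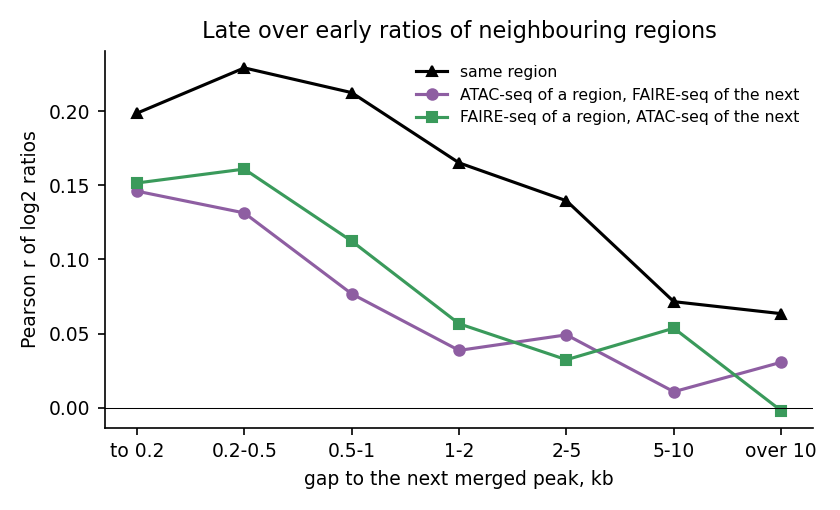
Pearson correlation of log2 late over early ratios by the gap between neighbouring merged peaks, within a region (black triangles) and from a region to the next in the other technique (circles and squares). The correlation between neighbours is 0.15 up to 0.2 kb and under 0.06 beyond 1 kb.

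Width and position were compared next. Falling regions were wide, with a median of 622 bp against 269 bp for all tested regions, and 79.8% of them were in the widest quartile. Rising regions had a median of 368 bp. On X 36 regions rose (0.559%) and 24 fell (0.373%), beside 0.381% and 0.474% of all tested regions. The median log2 fold change over the arm was 0.07 (0.10 by ATAC-seq, 0.04 by FAIRE-seq). X held 15.0% of the reads in the late and 13.8% in the early ATAC-seq library, and 17.7% in the late and 17.4% in the early FAIRE-seq library. On 3R 28 regions rose (0.332%) and 53 fell (0.629%, median −0.03), and on 2L 14 rose (0.204%) and 33 fell (0.482%, median −0.05). On 3L 33 rose and 33 fell (0.43% each), and on 2R 28 rose (0.416%) and 30 fell (0.446%). None of the 374 regions of chromosome 4 was called, beside 0.855% of all tested regions called in either direction. The sex of the larvae is not given by the labels, and its part in the X values was not tested.

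Binding of the insulator protein CTCF in wild type discs and the response to the cytokine Upd were set beside the calls last. Of 2119 regions that cover at least 40% of a CTCF peak 4 rose and 10 fell (0.189% and 0.472%, beside 0.381% and 0.474% of all tested regions), with a median of −0.09. Discs overexpressing Upd against wild type discs by ATAC-seq gave 2 regions that rose (0.00548%) and 4 that fell (0.011%) in edgeR's test, none of them called between late and early tumors. At least 2-fold higher in Upd discs with no test were 591 regions, of which 1 rose and 1 fell in late tumors, with a median of 0.07. At least 2-fold lower in Upd discs were 431 regions, of which 4 rose (0.928%) and 0 fell in late tumors, with a median of 0.09.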

How the data were processed

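The authors trimmed and mapped reads (bowtie2, dm3), dropped those with a mapping quality under 4 or from Wolbachia, shifted ATAC-seq reads to the transposase cut, called peaks per sample with MACS2 and pooled all peaks into a merged list. They deposited raw counts per merged peak (htseq-count), and peak lists that hold positions with no score. Of 36506 counted regions, 36503 had a read in the tumors. They were analysed with edgeR 4.0.16 (R 4.3.3): TMM, robust quasi-likelihood F-test, technique as a term, 1 residual degree of freedom, Benjamini-Hochberg adjustment over all tested regions and a threshold of 0.01. The estimated prior degrees of freedom were infinite, so the spread was pooled over regions and no region kept its own. Standard errors were taken as the size of the log2 fold change over the root of F. Ratios within a technique used normalised CPM plus 0.5 and had no test. The scripts were tested on simulated data. Overlaps (at least 1 base, or 40% of a CTCF peak) were made with bedtools 2.31.1 and figures with matplotlib 3.10.9.

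The regions named are the 10 rising and 10 falling with the largest change among called regions with at least 10 counts on average and 1 direction in both techniques, and those that the study's supplementary tables pair with listed genes or genes its text names. The planned link by annotation (introns and 5 kb upstream) and motif search were not run, as no genome of this build was used here. Called regions within 10 kb of a paired one, the order against wild types and the falling regions above all wild types in the early tumor were chosen after the values were seen. Members and gene lists were chosen with earlier results of these data known. Alternatives were DESeq2 1.42.0, other scalings and filters, no technique term, a thinned late ATAC-seq library, a model with the wild types, and leaving out each tumor library.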

Additional observations from a re-analysis of the deposited data

How the results depend on the processing

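The number of called regions depended on the model. DESeq2's Wald test gave 3 rising and 12 falling regions, its size factors in edgeR 80 and 97, total counts 239 and 254, and an adjusted p under 0.05 gave 405 and 419. Without the technique term 0 and 0 were called (189 regions at an unadjusted p under 0.05), and edgeR's model with the wild types gave 0 and 0 (1501), also without each tumor library in turn, from 0 to 0 (862 to 2570). All 312 called regions kept their direction in each fit that held the 4 tumor libraries. Those fits reuse the libraries on which the regions were chosen, so this is a description and no support. The median of the class in no wild type list was 0.17 by ATAC-seq alone, 0.35 with at least 50 counts and 0.36 with at least 100 counts. The correlation between techniques was 0.34, 0.40 and 0.42 with at least 50, 100 and 200 counts and 0.25 with a pseudocount of 5. The limits of 200 counts, and of 50 and 100 for the class, were added after seeing the data. With the late ATAC-seq library thinned, *Imp* had −0.0028. In the model with the wild types, paired regions turned direction without the late ATAC-seq library at *Atf3* −0.21, *Dl* 0.045, *Ilp8* −0.41, *Imp* −0.50, *S* 0.30, *dac* 0.12, *fru* −0.48, *insc* −0.57, *rpr* −0.19 and *toe* 0.29 (log2 fold changes). Without the early FAIRE-seq library they turned at *Atf3* −0.10, *Dl* 0.23, *Ets21C* −0.049, *Ilp8* −0.40, *Imp* −0.44, *Mmp1* −0.40, *S* 0.13, *aos* −0.39, *cher* −0.22, *chinmo* −0.26, *dac* 0.20, *eyg* 0.20, *fru* −0.30, *insc* −0.40, *rpr* −0.21 and *toe* 0.21. Of the called regions named, the one on 2R that starts at 938224 had −0.092 without the early ATAC-seq library. Over the 4 libraries left out, its values ran from −0.092 to 3.94. The cause was not tested. No paired analysis was possible because the labels give the stages no shared replicate numbers, and the technique term already compares late with early within a technique. The spread between the techniques rests on 1 residual degree of freedom.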
